A study of Mus musculus with 11 samples.

Results

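The 7 cytokine genes Il3, Il4, Il5, Il10, Il13, Il24 and Csf2 are described here in T cells that had been stimulated with dendritic cells from different organs. They were taken by gene symbol, as all probe sets that carry one of these symbols alone, and each gene had 1 probe set. They make up 7 of the 12393 genes measured. The probe sets were 1449864_at for Il4, 1450550_at for Il5, 1420802_at for Il13, 1450566_at for Il3, 1427429_at for Csf2, 1450330_at for Il10 and 1426181_a_at for Il24.

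Type 2 cytokines are secreted by helper T cells in responses to parasites and allergens, and act on B cells, eosinophils, mast cells, basophils and epithelia. Their genes are silent in naive T cells and are switched on by T cell receptor signals through the transcription factor NFAT, with GATA3 and STAT6 setting the type 2 programme. Interleukin 10 is the main anti-inflammatory product of T cells and restrains antigen-presenting cells. In the mouse, Il4, Il13, Il5, Csf2 and Il3 lie along a stretch of chromosome 11, and Il24 and Il10 lie near each other on chromosome 1.

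T cells of the B10.BR strain were cultured for 4 days with C57BL/6 dendritic cells, antigen-presenting cells that prime T cells, and total RNA of the T cells was measured on 11 single-colour arrays. The labels give the organ of the dendritic cells as Liver on 3 arrays, MLN on 3, PLN on 3 and Spleen on 2. MLN and PLN are not spelled out in the labels. The series asks whether the organ of the dendritic cells changes the T cells. The 2 strains and the 4 days were common to all groups, and no group is T cells without dendritic cells, so each organ is set against the others. Liver, MLN and PLN arrays carry the replicate numbers 2, 3 and 4, and Spleen arrays the numbers 3 and 4. The labels do not say that these arrays came from separate animals or cultures, so p-values measure the spread between arrays, which may be technical.

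The start of each chromosome 11 gene is shown. These 5 genes share a locus and all had higher mean levels on arrays numbered 3, as given further on, but so did Il10 and Il24. Il10 and Il24 are left out because the promoter reference held no entry for them. The 250 bases before the transcription start are from RefSeq (GRCm38.p6), 5′ to 3′ on the gene's own strand. Capitals mark the NFAT core GGAAA and its reverse complement TTTCC.
Il4: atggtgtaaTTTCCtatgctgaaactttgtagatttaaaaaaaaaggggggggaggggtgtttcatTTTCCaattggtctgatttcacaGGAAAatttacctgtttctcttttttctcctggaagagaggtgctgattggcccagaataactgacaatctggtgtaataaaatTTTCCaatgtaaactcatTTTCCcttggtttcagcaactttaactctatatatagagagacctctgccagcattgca
Il13: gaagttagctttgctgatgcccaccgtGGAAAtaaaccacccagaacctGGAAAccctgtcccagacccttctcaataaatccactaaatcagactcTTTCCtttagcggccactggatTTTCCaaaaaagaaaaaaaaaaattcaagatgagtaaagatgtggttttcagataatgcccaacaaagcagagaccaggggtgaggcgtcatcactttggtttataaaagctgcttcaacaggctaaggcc
Il5: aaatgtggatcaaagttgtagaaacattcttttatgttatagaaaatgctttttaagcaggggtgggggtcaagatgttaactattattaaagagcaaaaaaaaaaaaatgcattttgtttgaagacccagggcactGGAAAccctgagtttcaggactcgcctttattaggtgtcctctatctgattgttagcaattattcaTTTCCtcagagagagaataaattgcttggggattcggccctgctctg
Csf2: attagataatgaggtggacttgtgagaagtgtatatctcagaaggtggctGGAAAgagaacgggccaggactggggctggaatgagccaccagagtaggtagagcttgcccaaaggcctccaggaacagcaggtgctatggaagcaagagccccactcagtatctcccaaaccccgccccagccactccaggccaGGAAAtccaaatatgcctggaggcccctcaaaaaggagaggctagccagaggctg
Il3: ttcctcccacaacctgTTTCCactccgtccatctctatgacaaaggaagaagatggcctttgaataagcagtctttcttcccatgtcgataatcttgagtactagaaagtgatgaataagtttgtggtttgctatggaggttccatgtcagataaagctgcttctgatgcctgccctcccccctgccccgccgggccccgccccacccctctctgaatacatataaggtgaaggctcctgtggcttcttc
These windows lie at chr11:53618666-53618915 for Il4, chr11:53634703-53634952 for Il13, chr11:54249900-54250149 for Csf2 and chr11:54267280-54267529 for Il3, all on the minus strand, and at chr11:53720544-53720793 on the plus strand for Il5. The core was found 5 times before Il4, 4 times before Il13, 2 times each before Il5 and Csf2, and 1 time before Il3. It occurs in 55.7% of all 32536 promoter windows of this length, and 6.41% of them hold 3 or more. GATA, searched on both strands like the other motifs, was found in 4 of the 5 windows and in 53.4% of all windows. TATAA was found in 3 of 5 and in 22.7% of all, CACCC in 4 of 5 and in 52.1%, and the AP-1 motif TGANTCA in 0 of 5 and in 6.73%. A match is only a run of letters in this window.

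T cell transcripts were abundant on every array. The summed intensity of the 9 measured T cell markers, of 11 listed, ran from 23652.8 to 33324.5. Markers of mast cells and basophils, which also make Il4, Il13 and Il3, summed to 721.3 to 1576.9, and 7 of their 9 measured genes, Mcpt8 and Fcer1a among them, lay below the level kept for testing. All 4 measured eosinophil markers lay below that level, with sums of 60.7 to 135.7. Macrophage markers summed to 492.9 to 1047, B cell markers to 1410.4 to 2458.9, and NK cell markers, some of which activated T cells share, to 6580.2 to 13162.4. The array medians spanned 0.22 on the log2 scale before normalization.

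**Figure D1:**
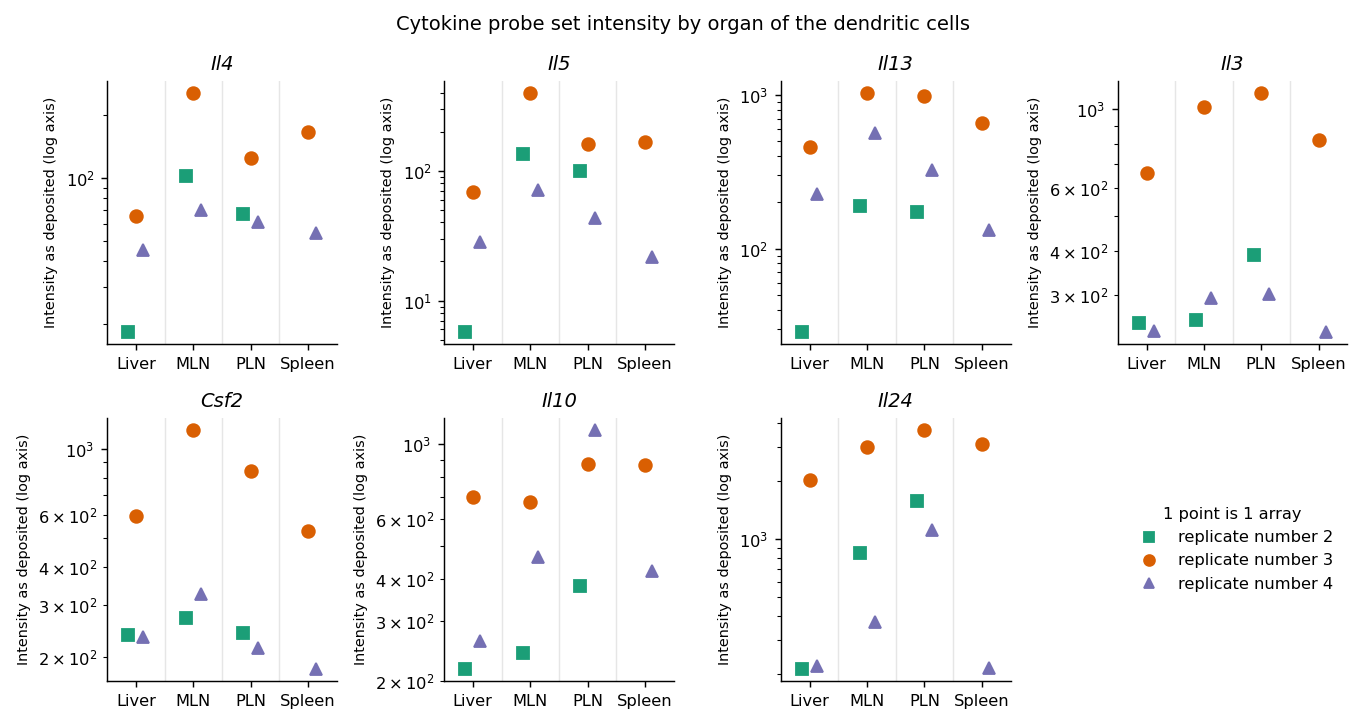
Deposited intensity (log axis) of each cytokine gene on each of the 11 arrays, by organ of the dendritic cells, with 1 point an array and the symbol giving the replicate number. Arrays numbered 3 lie highest in every organ for 6 genes; for Il10 the highest array is PLN replicate 4, at 1102.8.

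Il24 gave the brightest signal of the 7 genes, with a mean intensity of 1493 and a place at the 81.0th percentile of all genes measured. Il10, Il3, Csf2 and Il13 lay between the 57.7th and the 67.8th percentile. Il4 and Il5 were dim, at the 35.2nd and 34.5th percentile, and fell under the minimum mean level for testing, which corresponds to an intensity of 105. Thus 5 of the 7 genes passed this filter; for Il4 and Il5 the tests are those of a fit over all 12393 genes with no filter. Levels of different probe sets are not comparable as amounts of RNA, and percentiles only place each probe set on the array.

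Il4, which steers helper T cells to the type 2 fate and B cells to immunoglobulin E, was lowest on Liver arrays and highest on MLN arrays within every replicate number. Its intensities on replicates 2, 3 and 4 were 18.2, 65.6 and 45.1 in Liver, 101.9, 256.5 and 70.2 in MLN, and 67.0, 125.5 and 61.4 in PLN. Spleen replicates 3 and 4 had 166.0 and 54.4. All 3 Liver arrays lay below all 3 MLN arrays, the lowest of which exceeded the highest Liver array by a small margin, while Liver overlapped PLN and Spleen. On the normalized log2(intensity + 16) scale Il4 averaged 5.85 ± 0.64 in Liver, 7.20 ± 0.78 in MLN, 6.59 ± 0.56 in PLN (SD, n = 3 each) and 6.70 ± 1.08 in Spleen (n = 2). On that scale Spleen replicate 4, not Liver replicate 4, was the lowest array numbered 4.

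Il5, the growth and survival factor of eosinophils, followed Il4. Liver replicates 2, 3 and 4 had intensities of 5.7, 69.1 and 28.2, against 134.5, 397.4 and 71.0 in MLN, 100.1, 160.3 and 43.0 in PLN, and 165.4 and 21.6 in Spleen replicates 3 and 4. Every Liver array lay under every MLN array, by little between Liver replicate 3 and MLN replicate 4. Mean log2 levels were 5.49 ± 0.98 in Liver, 7.53 ± 1.06 in MLN, 6.71 ± 0.92 in PLN (SD, n = 3 each) and 6.25 ± 1.70 in Spleen (n = 2). The level in Liver replicate 2 lay under the pseudocount of 16, so its log2 differences from the other arrays are understated.

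Il13, which shares a receptor with interleukin 4 and drives mucus production and alternative macrophage activation, was brighter than Il4 and Il5 and passed the filter. Its intensities on replicates 2, 3 and 4 were 28.5, 459.9 and 227.1 in Liver, 190.0, 1028.9 and 563.5 in MLN, and 172.5, 985.3 and 323.1 in PLN. Spleen replicates 3 and 4 had 656.7 and 132.8. The organs overlapped, because each of them held low and high arrays, but within each number Liver lay below MLN and PLN, and MLN was the highest organ. Mean log2 levels were 7.44 ± 1.76 in Liver, 8.98 ± 1.18 in MLN, 8.65 ± 1.20 in PLN (SD, n = 3 each) and 8.22 ± 1.62 in Spleen (n = 2).

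Il3, a growth factor of many blood cell lineages including basophils and mast cells, differed little between organs. On replicates 2, 3 and 4 its intensities were 251.4, 660.9 and 237.4 in Liver, 256.4, 1012.8 and 294.2 in MLN, and 389.9, 1111.8 and 302.3 in PLN, and Spleen replicates 3 and 4 had 821.3 and 236.1. The arrays fell apart by number: the 4 arrays numbered 3 lay above the other 7, and the organs overlapped. Mean log2 levels were 8.48 ± 0.78 in Liver, 8.82 ± 1.04 in MLN, 9.03 ± 0.98 in PLN (SD, n = 3 each) and 8.79 ± 1.25 in Spleen (n = 2).

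Csf2 encodes the granulocyte-macrophage colony-stimulating factor, whose receptor shares its beta chain with those of interleukins 3 and 5. Replicates 2, 3 and 4 had intensities of 236.3, 595.3 and 233.5 in Liver, 271.1, 1159.9 and 325.3 in MLN, and 241.3, 841.8 and 214.0 in PLN, and Spleen replicates 3 and 4 had 529.5 and 182.3. As with Il3, the arrays numbered 3 lay above all others, and MLN was the highest organ within each number. Mean log2 levels were 8.40 ± 0.73 in Liver, 8.96 ± 1.10 in MLN, 8.53 ± 1.07 in PLN (SD, n = 3 each) and 8.30 ± 1.09 in Spleen (n = 2).

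Il10 had another order, with PLN the highest organ within every number. Replicates 2, 3 and 4 had intensities of 216.8, 698.9 and 262.0 in Liver, 241.8, 674.5 and 463.6 in MLN, and 382.0, 870.8 and 1102.8 in PLN, and Spleen replicates 3 and 4 had 864.8 and 421.7. Here PLN replicate 4 was the highest of all 11 arrays, Liver and MLN were near each other in replicates 2 and 3, and the organs overlapped. Mean log2 levels were 8.48 ± 0.87 in Liver, 8.80 ± 0.72 in MLN, 9.54 ± 0.77 in PLN (SD, n = 3 each) and 9.25 ± 0.71 in Spleen (n = 2).

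Il24, a member of the interleukin 10 family known in the mouse from type 2 helper T cells, was likewise highest in PLN within each number. On replicates 2, 3 and 4 its intensities were 212.2, 2025.2 and 219.3 in Liver, 846.8, 2997.0 and 373.7 in MLN, and 1582.2, 3700.3 and 1115.6 in PLN. Spleen replicates 3 and 4 had 3132.0 and 215.2, the widest gap within an organ for this gene. All 4 arrays numbered 3 lay above the others, and Liver overlapped each other organ. Mean log2 levels were 8.91 ± 1.82 in Liver, 9.98 ± 1.45 in MLN, 10.88 ± 0.86 in PLN (SD, n = 3 each) and 9.71 ± 2.74 in Spleen (n = 2).

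Set in order of mean log2 level, Liver was lowest for 6 of the 7 genes; for Csf2 it lay just above Spleen. MLN was highest for Il4, Il5, Il13 and Csf2, and PLN for Il3, Il10 and Il24. Neighbours in these orders differed by less than the larger SD of the pair, except Il4 in Liver and PLN, which were 0.74 apart. These SDs hold the difference between replicate numbers. Within numbers the order was steadier. Liver lay below MLN in all 3 numbers for 6 of the 7 genes, all but Il10, and for 4 of the 5 that passed the filter, against 17.6% of all tested genes. MLN was highest in all 3 numbers for Il4, Il5, Il13 and Csf2, which is 2 of the 5 tested, against 3.98% of tested genes. PLN was highest in all 3 for Il10 and Il24, again 2 of 5, against 1.67%. The shares over tested genes count each gene once, and the 7 genes were chosen with these levels known.

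The 4 organs were compared with limma, first with organ alone in the model. None of the 5 tested cytokine genes passed at a Benjamini-Hochberg adjusted p of 0.05 (0 of 5), and 0.0403% of all 7436 tested genes did. At an unadjusted p under 0.05 there were 0 of 5, against 2.56% of tested genes. With the replicate number as a block, which takes the difference between numbers out of the error, 3 of the 5 passed: Il13 (adjusted p = 0.0368), Il24 (adjusted p = 0.0473) and Csf2 (adjusted p = 0.0488). The share over all tested genes was then 1.98%. Il10 (adjusted p = 0.105) and Il3 (adjusted p = 0.122) did not pass, nor did Il5 (adjusted p = 0.148) and Il4 (adjusted p = 0.216) in the fit without a filter. In bulk RNA, fewer cells that make a cytokine and less RNA per cell cannot be told apart.

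These blocked calls were close to the threshold and each depended on single arrays. That of Il13 was lost without Liver replicate 2 or 3, MLN replicate 2 or 4, or PLN replicate 3 or 4 (adjusted p from 0.0519 to 0.129). That of Il24 was lost without Liver replicate 2 or 4, PLN replicate 2 or 4, or any MLN array (0.0646 to 0.184). That of Csf2 held only without Liver replicate 3 or PLN replicate 4, and was lost without any of the other 9 arrays (0.0625 to 0.198). With no filter on low values the same blocked fit gave adjusted p-values of 0.132 for Il13, 0.144 for Il24 and 0.139 for Csf2 (organ F-test). With the number as a random block, or as a fixed block with no variance trend, 0 of the 5 passed the organ test or any pair of organs.

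Il13 and Il5 were lower in Liver than in MLN in the blocked fit. All 7 genes were lower in Liver, with a median log2 difference of -1.07, against 0.0073 over all 12393 genes. With organ alone in the model 0 of 5 tested genes passed (0 of 5 at an unadjusted p under 0.05; 0.161% of tested genes passed). In the blocked fit Il13 fell in Liver by 1.54 on the log2 scale (SE 0.30, adjusted p = 0.014), the only 1 of the 5 tested, where 2.25% of tested genes passed as lower. Its Liver to MLN ratio of deposited intensities was 0.15, 0.447 and 0.403 within numbers 2, 3 and 4. Il5 fell by 2.04 (SE 0.40, adjusted p = 0.0403) in the blocked fit with no filter, in which 0.831% of genes passed as lower. Il4 had a difference of -1.36 (SE 0.29, adjusted p = 0.0548) and Csf2 of -0.56 (SE 0.15, adjusted p = 0.0588), both just short of the threshold. Il24 differed by -1.07 (SE 0.35, adjusted p = 0.127), Il3 by -0.34 (SE 0.13, adjusted p = 0.211) and Il10 by -0.32 (SE 0.23, adjusted p = 0.553).

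The Il13 call between Liver and MLN was kept in 8 of 11 fits that left out 1 array. It was lost without Liver replicate 2 (adjusted p = 0.0879), MLN replicate 2 (adjusted p = 0.102) or MLN replicate 4 (adjusted p = 0.0874), all with Il13 Liver minus MLN below 0. With no filter it was also just missed (adjusted p = 0.0518). The Il5 call was kept in 4 of 11 and lost without Liver replicate 2 or 3, any MLN array, or PLN replicate 3 or 4 (0.0558 to 0.186). Without the block Il4 and Il5 had unadjusted p-values of 0.0251 and 0.0225 and an adjusted p of 0.864 each.

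Il24 and Il10 were lower in Liver than in PLN in the blocked fit. All 7 genes were lower in Liver here too, with a median log2 difference of -1.05, against 0.0082 over all genes. With organ alone 0 of 5 passed (0 of 5 at an unadjusted p under 0.05), and 0% of tested genes did. In the blocked fit Il24 fell in Liver by 1.97 (SE 0.35, adjusted p = 0.0279) and Il10 by 1.05 (SE 0.23, adjusted p = 0.0451), 2 of the 5, where 1.09% of tested genes passed as lower. The Liver to PLN ratio of Il24 intensities was 0.134, 0.547 and 0.197 within numbers 2, 3 and 4, and that of Il10 was 0.568, 0.803 and 0.238. Il3 had a difference of -0.55 (adjusted p = 0.0653) and Il13 of -1.21 (adjusted p = 0.0666). Il5 differed by -1.23 (adjusted p = 0.26), Il4 by -0.74 (adjusted p = 0.354) and Csf2 by -0.13 (adjusted p = 0.749).

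The Il24 call between Liver and PLN was kept in 7 of 11 fits that left out 1 array, and lost without Liver replicate 2 or 4 or PLN replicate 2 or 4 (adjusted p from 0.0846 to 0.186). That of Il10 was kept in 4 of 11, and lost without Liver replicate 2 or 4, PLN replicate 2 or 4, or any MLN array (0.058 to 0.198). With no filter the blocked adjusted p was 0.0926 for Il24 and 0.129 for Il10 (Il24 Liver minus PLN and Il10 Liver minus PLN).

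Markers of other cells also differed between Liver and these organs. The macrophage marker sum was 896, 875.3 and 831.2 in Liver replicates 2, 3 and 4, against 731.7, 628.8 and 492.9 in MLN and 529.7, 681.3 and 780 in PLN. It was thus higher in Liver than in MLN and PLN within every number. Spleen replicates 3 and 4 had sums of 1047 and 934.5, above Liver in the same numbers. Of the 8 measured markers, 5 had a higher mean in Liver than in MLN and 4 than in PLN. Lyz2 and Cd14 carried most of the difference in the sum. Lyz2, a lysozyme, averaged 205 in Liver, 92.9 in MLN and 105 in PLN, and the endotoxin coreceptor Cd14 178, 64.2 and 88.8. Fcgr1 went the other way, with 7.1 in Liver, 21.7 in MLN and 19.9 in PLN. The complement gene C1qa was near 0 in all 3, at 6.07, 6.13 and 6.63. The dendritic cell marker sum was lower in Liver than in MLN and PLN within every number. It was 8511.6, 13655.3 and 6976.1 in Liver, 9743.2, 15080.4 and 8964.8 in MLN and 8704.4, 14086.8 and 9014.1 in PLN. Of the 12 markers, 4 were higher in Liver than in MLN and 6 than in PLN. Batf3 carried most of the gap to PLN, since its average rose from 1047 on Liver arrays to 1894 on PLN arrays. Against MLN the widest gaps were those of Batf3, with 1621 on MLN arrays, and Fscn1, which rose from 2765 to 3344. Batf3 is also among the genes most like Il24 given further on. Whether the lower sum goes with a different number of dendritic cells was not tested. Of the 9 T cell markers 8 had a higher mean in Liver than in MLN and 9 than in PLN. The part of these differences in the cytokine levels was not tested.

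**Figure D2:**
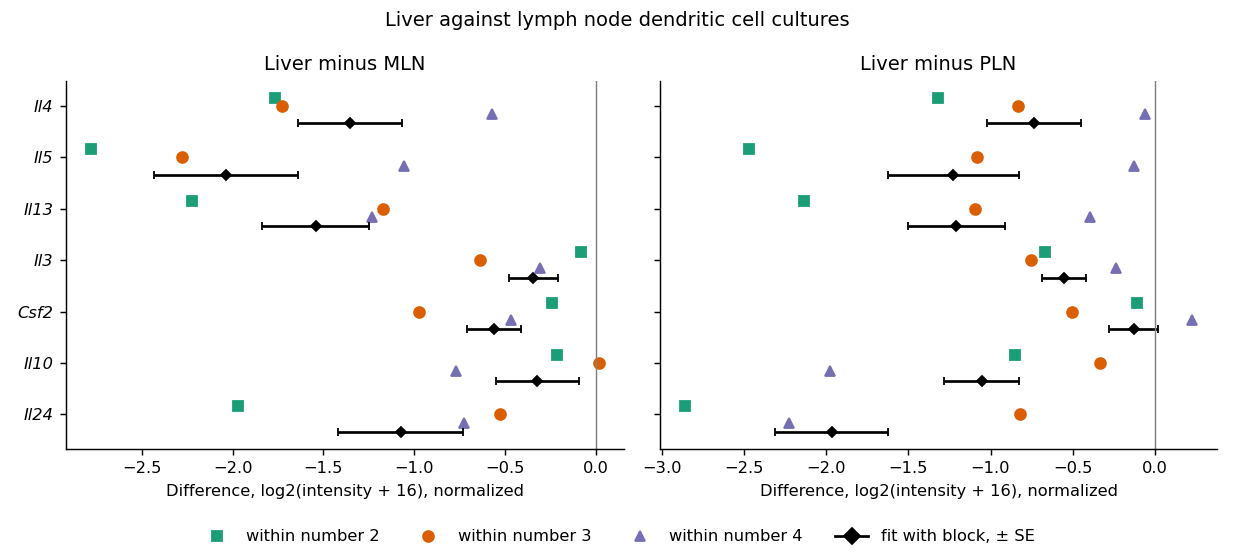
Log2 difference of Liver from MLN (left panel) and from PLN (right panel) for each gene, within each replicate number (coloured symbols) and in the blocked fit (black diamonds, ± SE). For Liver minus MLN nearly all symbols lie left of 0. Among the diamonds Il5 lies farthest, at -2.04, and within number 2 Il5 lies at -2.78. For Liver minus PLN the diamond of Il24 lies farthest, at -1.97, and within number 2 Il24 lies at -2.86.

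The other 4 pairs of organs gave no blocked call among the 5 tested genes. MLN against Spleen came nearest: Csf2 was 0.95 higher in MLN (SE 0.17, adjusted p = 0.0549) and Il13 1.48 higher (SE 0.34, adjusted p = 0.0884), where 0.215% of tested genes passed. At an unadjusted p under 0.05 this pair had 2 of 5, against 14% of tested genes. In MLN against PLN 0.148% of tested genes passed, and at an unadjusted p under 0.05 there were 3 of 5, against 5.92% of tested genes; Il10 differed by -0.73 (adjusted p = 0.586) and Il24 by -0.89 (adjusted p = 0.802). In PLN against Spleen 0% of tested genes passed, and at an unadjusted p under 0.05 there were 5 of 5, all higher in PLN, against 8.11% of tested genes. In Liver against Spleen 0% passed, and at an unadjusted p under 0.05 there was 1 of 5, against 8.65% of tested genes, with differences from -0.53 for Il24 to 0.39 for Csf2. Spleen has 2 arrays, and replicate 3 lay above replicate 4 for every gene, by 1.01 (Il10) to 3.88 (Il24) on the log2 scale. This gap was wider in Spleen than in any other organ for Il4, Il5, Il13 and Il24. For Il3, Il10 and Csf2 another organ had a wider gap. In number 4, Spleen held the lowest intensity of Il3, Il5, Il13, Il24 and Csf2 of any organ.

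The 7 genes were also compared between replicate numbers. With organ in the model, all 5 tested genes passed limma's F-test over the 3 numbers: Il3 (adjusted p = 2.88e-06), Csf2 (4.67e-06), Il13 (4.56e-05), Il24 (4.66e-05) and Il10 (0.00078). This is a common property here, since 48.1% of all tested genes passed. In the fit with no filter all 7 passed, with Il5 at 0.00852 and Il4 at 0.0123, where 26.2% of genes did. The Il4 call was lost without MLN replicate 3 (adjusted p = 0.0581). With no organ term in the model the calls of Il4 (adjusted p = 0.0926) and Il5 (adjusted p = 0.106) over numbers were lost, and those of the 5 tested genes were not. The labels do not say what a replicate number stands for.

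Arrays numbered 3 were high. They held the highest intensity in each of the 4 organs for 6 of the 7 genes, and for 4 of the 5 tested, against 13.9% of tested genes. For Il3, Il24 and Csf2, 3 of the 5 tested, every array numbered 3 lay above every other array, which 7.75% of tested genes did. Against number 2 all 5 tested genes were higher in number 3, where 9.29% of tested genes passed as higher: Il13 rose by 2.84 (SE 0.29), Il24 by 2.23 (SE 0.33), Csf2 by 1.66 (SE 0.14), Il3 by 1.59 (SE 0.13) and Il10 by 1.46 (SE 0.22), with adjusted p-values from 5.49e-05 to 0.00143. With no filter, where 4.09% of genes passed as higher, Il4 rose by 1.14 (adjusted p = 0.034), and Il5 had 1.43 (adjusted p = 0.0501). The Il4 call held only without Liver replicate 4, MLN replicate 4 or PLN replicate 4, and was lost without any other array (0.0505 to 0.142), with no organ term (0.159) and with no variance trend (0.079, Il4 number 3 minus number 2). Il5 passed without Liver replicate 4 (adjusted p = 0.0212) or PLN replicate 2 (adjusted p = 0.0458).

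Against number 4 all 5 tested genes were again higher in number 3, where 21% of tested genes passed as higher. Il24 rose by 2.88 (SE 0.30, adjusted p = 1.83e-05), Il3 by 1.67 (SE 0.12, adjusted p = 1.39e-06), Csf2 by 1.62 (SE 0.13, adjusted p = 3.04e-06) and Il13 by 1.41 (SE 0.26, adjusted p = 0.000945). Il10 rose least, by 0.62 (SE 0.20, adjusted p = 0.024), and its call was lost without Liver replicate 3 or 4, MLN replicate 4, or either Spleen array (0.0517 to 0.119) and with no filter (0.0606, Il10 number 3 minus number 4) or no organ term (0.144). With no filter, where 11.7% of genes passed as higher, Il5 rose by 1.77 (adjusted p = 0.00416) and Il4 by 1.10 (adjusted p = 0.00924). Both calls were lost with no organ term (Il5 0.0552 and Il4 0.0704). The median over the 7 genes in that fit was 1.59 for number 3 minus number 2 and 1.62 for number 3 minus number 4, against -0.0027 and -0.013 over all genes.

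Numbers 4 and 2 were told apart by only some of the genes. Il13 was 1.44 higher in number 4 than in number 2 (SE 0.29, adjusted p = 0.00365) and Il10 0.84 higher (SE 0.22, adjusted p = 0.0153), 2 of the 5 tested, where 14.8% of tested genes passed as higher. The Il10 call was lost when replicate 2 of MLN or of PLN, or replicate 4 of MLN, was left out (0.0574 to 0.0739). With no organ term both calls were lost, with an adjusted p of 0.118 for Il13 and 0.0993 for Il10. Il3 (-0.08, adjusted p = 0.686), Csf2 (0.04, adjusted p = 0.854) and Il24 (-0.65, adjusted p = 0.171) did not pass.

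**Figure D3:**
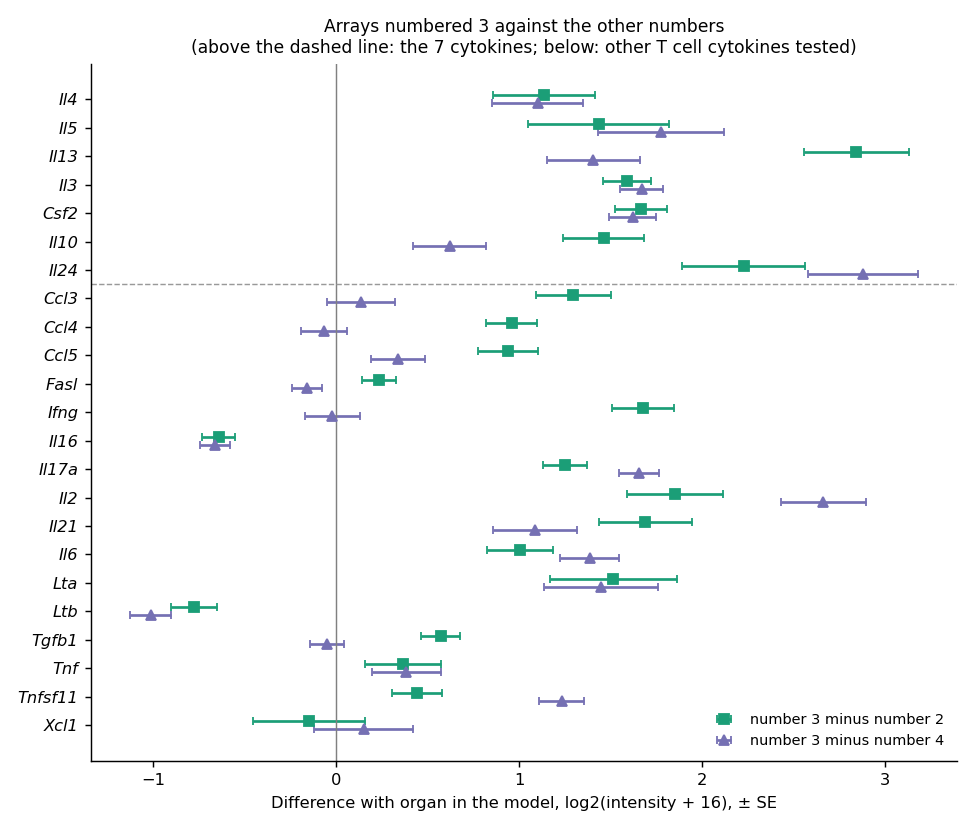
Difference of the arrays numbered 3 from those numbered 2 (squares) and 4 (triangles), log2(intensity + 16) with organ in the model, ± SE. The 7 cytokine genes, above the dashed line, all lie right of 0. The 16 other T cell cytokines below it have medians of 0.95 against number 2 and 0.24 against number 4. Of these, Ifng lies at 1.68 and -0.02.

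Most dendritic cell markers were also high on the arrays numbered 3. The summed intensity of the 12 dendritic cell markers, all measured, was 13655.3 to 15119.1 on the 4 arrays numbered 3 and 6461.3 to 9743.2 on the other 7. Of the 12, 10 had their highest mean in number 3, and Fscn1 and Ccl22 were the brightest of them and carried most of the difference in the sum. Ccl22, a chemokine of mature dendritic cells, averaged 3402 on arrays numbered 3, 1035 on those numbered 4 and 1392 on those numbered 2. Fscn1, which bundles actin in mature dendritic cells, averaged 4552, 1906 and 2416 on the same arrays, and the lineage factor Zbtb46 154, 52.9 and 92.8. Itgax, an integrin of dendritic cells and of some activated lymphocytes, was lowest there, with 112 on arrays numbered 3, 451 on those numbered 4 and 115 on those numbered 2, and the class II gene H2-Ab1 was highest in number 4, with 298, 372 and 279 in numbers 3, 4 and 2. Activated T cells can also express some of these genes. Mast cell and basophil markers summed to 721.3 to 831.7 on arrays numbered 3 and 881.9 to 1576.9 on the others, a difference carried by Kit, with a mean of 366 in number 3, 748 in number 4 and 585 in number 2. Of the 9 measured, 4 had their lowest mean in number 3 and 2, Tpsb2 and Gata2, their highest. The T cell marker sum was 23652.8 to 24405.7 on arrays numbered 3 and 23884.6 to 33324.5 on the others. The part of these cell types in the cytokine levels was not tested.

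The share of each gene's variance that went with number and organ differed between the genes. The number took 89.9% of the variance of Il3, 82.7% of Csf2, 68.1% of Il24, 65.2% of Il13, 58.2% of Il10, 47.3% of Il4 and 43.9% of Il5. The organ, after the number, took 7.59% for Il3 and 14.2% for Csf2, between 23.9% and 28.6% for Il24, Il13 and Il10, and 41.6% for Il4 and 44.0% for Il5. Over all tested genes summed, the number took 57.9%, the organ 22.0% and 20.1% was left. The dim pair Il4 and Il5 thus had the largest organ share and Il3 the smallest.

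**Figure D4:**
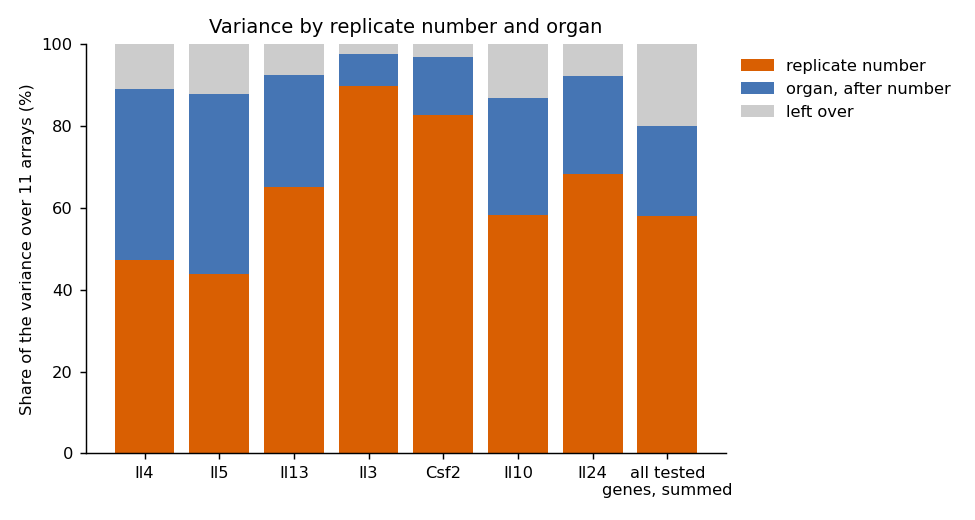
Percent of the variance over the 11 arrays that went with replicate number, with organ after number, and that was left over, for each of the 7 genes and for all tested genes summed. The organ share runs from 7.59% for Il3 to 44.0% for Il5.

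The genes formed groups by how they varied together over the 11 arrays, which share replicate numbers and organs, so these correlations are descriptions. Il4 and Il5 were the closest pair, with Pearson's r = 0.97, and Il3 and Csf2, neighbours on chromosome 11, followed with 0.94. Il5 and Il10 were the least alike, with 0.44. After the mean of each number was subtracted, Il4 and Il5 kept 0.97, Il5 and Il13 had 0.93, and Il4 and Il13 had 0.83. Il10 and Il24 had 0.83 on that measure, while Il10 and Csf2 had -0.13 and Il24 and Csf2 0.14. Il3 and Csf2 then had 0.59.

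Other genes also followed single cytokines. Those named were picked for the highest r on each measure, so their values cannot be compared with those of the cytokine pairs. By level over the 11 arrays, Nipa2 (r = 0.98), Marcks and Slc31a1 (0.97 each) were most like Il3, and Ltn1, Cyb5b and Cdk7 (0.97, 0.97 and 0.96) most like Csf2. Aff1 (0.98), Il2ra (0.97), the alpha chain of the interleukin 2 receptor, and Eef1e1 (0.96) were most like Il24. Pgs1 (0.97), Prmt6 and Scin (0.93 each) were most like Il13, and P2ry14, Acsl6 and Slc45a2 (0.92 each) most like Il10. After the number means were subtracted, the nearest to Il13 were Gadd45g (0.98), a stress-inducible gene of T cell activation, Grap2 (0.97), an adaptor of T cell receptor signalling, and Rnf19b (0.96). To Il24 they were Slc39a8, Batf3 and Srp68 (0.95 each), to Il10 Vps39 (0.95), Rab28 (0.94) and Mri1 (0.93), to Csf2 Tollip (0.95), Atp6v0a2 and Rpa1 (0.92 each), and to Il3 Prkab1 (0.90), Tax1bp1 and Pex14 (0.89 each).

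Among the receptors of these cytokines, 7 of 14 listed genes were tested, and 1 passed the blocked organ test, where 1.98% of tested genes did. Il4ra, the chain that binds interleukin 4 and also serves interleukin 13, had intensities of 528.8, 681.8 and 597.1 in Liver replicates 2, 3 and 4. MLN replicates had 1016.4, 1239.7 and 1016.7, PLN replicates 904.8, 897.4 and 812.8, and Spleen replicates 3 and 4 had 1007.6 and 644.0. All Liver arrays lay below all MLN and PLN arrays, and Liver overlapped Spleen, where replicate 4 was low. In the blocked fit Il4ra fell in Liver by 0.86 against MLN (SE 0.11, adjusted p = 0.00127) and by 0.55 against PLN (adjusted p = 0.0353). Over the 3 numbers 5 of the 7 receptors passed, where 48.1% of tested genes did. Among the 5 were the shared beta chain Csf2rb (adjusted p = 0.0313), Csf2rb2 (adjusted p = 0.0171) and the interleukin 3 receptor chain Il3ra (adjusted p = 0.00465). Csf2rb and Csf2rb2 were 0.88 and 0.53 higher in number 3 than in number 4, and Il3ra was -0.76.

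Of 24 listed regulators of type 2 genes 19 were tested; 4 passed the blocked organ test, all 4 lower in Liver than in MLN, where 1.98% of tested genes passed the organ test, and 13 passed over numbers, where 48.1% did. The median difference of Liver from MLN was -0.17 over the 19, against 0.0099 over all tested genes. Gfi1, a repressor that aids growth of type 2 cells, fell by 0.93 (SE 0.11, adjusted p = 0.000794), and Ecm1, which lets type 2 cells leave the lymph node, by 1.63 (SE 0.23, adjusted p = 0.00212). Nfil3, a transcription factor of cytokine genes, fell by 1.10 (SE 0.17, adjusted p = 0.00376), and Ccr4, a chemokine receptor of type 2 cells, by 0.81 (SE 0.16, adjusted p = 0.0169). Among regulators that did not pass, Gata3 differed by -0.30, Stat6 by 0.06, Nfatc2 by 0.39 and Ccr8 by 0.54. Gfi1 was lowest in number 3, with mean log2 levels of 9.85, 9.25 and 9.89 in numbers 2, 3 and 4. Nfil3 was lowest there too, with 10.17, 9.64 and 10.13. Ecm1 and Ccr4 were highest in number 3, at 9.86 and 8.23. Without the block 0 genes of any list passed the organ test; at an unadjusted p under 0.05 there were 4 of the regulators, 1 of the receptors, 0 of the other cytokines and 1 of the neighbours on each chromosome, against 2.56% of tested genes.

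Of 20 other cytokine genes of T cells 16 were tested, and 14 passed over numbers, where 48.1% of tested genes did. Only Il17a, the cytokine of type 17 helper cells, passed the blocked organ test among them (adjusted p = 0.00145), where 1.98% of tested genes did. Its intensities in replicates 2, 3 and 4 were 398.1, 1166.8 and 320.7 in Liver and 1041.1, 2423.5 and 892.4 in PLN, so that Liver lay under PLN in each number, by 1.28 in the blocked fit (adjusted p = 0.0025). Against MLN the calls ran the other way. Ccl4, Ccl5 and Il16 were higher in Liver by 0.61, 0.73 and 0.43 (adjusted p = 0.0339, 0.0337 and 0.0255), where 1.88% of tested genes passed as higher. Of the 16, 0 passed as lower, where 2.25% of tested genes did. The median over the 16 was -0.09. Whether this list differed from the 7 cytokine genes was not tested.

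In number 3 against number 2, 11 of the 16 other cytokine genes passed as higher and 2 as lower, with a median of 0.95. The shares over tested genes were 9.29% and 9.59%. Against number 4, 6 passed as higher and 2 as lower, with a median of 0.24, where 21% and 22.3% of tested genes did. Il2 and Ifng are named here after their values were seen. Il2, the T cell growth factor, was higher in number 3 than in numbers 2 and 4, by 1.85 (adjusted p = 0.00106) and 2.66 (adjusted p = 6.09e-06), as Il3, Il24 and Csf2 were. Ifng, the type 1 cytokine, rose by 1.68 against number 2 (adjusted p = 0.000152) and did not pass against number 4, with -0.02 (adjusted p = 0.931), and was 1.70 higher in number 4 than in number 2. In that comparison Il13 and Il10 had differences of 1.44 and 0.84.

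Neighbouring genes were examined because the cytokine genes lie in 2 clusters. By the reference annotation the order on chromosome 11 is Il4, Il13, Rad50, Il5, Irf1, Slc22a5, Slc22a21, Slc22a4, Pdlim4, P4ha2, Csf2 and Il3. Of 7 tested neighbours 1, P4ha2, a collagen-modifying enzyme, passed the blocked organ test (adjusted p = 0.048), where 1.98% of tested genes did. P4ha2 fell in Liver against MLN by 0.80 (adjusted p = 0.0103), as did Kif3a, a kinesin motor, by 0.61 (adjusted p = 0.016), where 2.25% of tested genes passed as lower. Rad50, a DNA repair gene between Il13 and Il5, did not pass (adjusted p = 0.366), nor did Acsl6 (adjusted p = 0.351), a fatty acid activating enzyme. P4ha2 was lowest in number 3, with a mean log2 level of 8.99, against 9.93 in number 4 and 9.53 in number 2, whereas Csf2 and Il3 beside it were highest in number 3. On chromosome 1 the order is Il24, Il20, Il19 and Il10. There 3 neighbours were tested and 0 passed the blocked organ test, with Mapkapk2 at an adjusted p of 0.17 and Dyrk3 at 0.773. At an unadjusted p under 0.05 there was 1, against 15.5% of tested genes. None of these 3 passed over numbers, where 48.1% of tested genes did.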

How the data were processed

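The authors deposited linear intensities, 1 for each probe set on each array. These intensities had been scaled, since the mean after trimming 2% at each end was 500.2 on every array. The array software is not given in the sources used here. Of 22690 probe sets, 64 controls were left out; 20380 had 1 gene symbol in the platform annotation, 691 had several and 1555 had none, and 20351 symbols matched the reference. Intensities were turned into log2(intensity + 16) and quantile normalized. The probe set with the highest mean stood for its gene, and the 7436 genes in the upper 60% by mean were tested. Log2 differences are on this scale and understate changes of dim genes. The number of arrays limits the precision.

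All 11 arrays entered limma 3.58.1 (R 4.3.3) fits, using a trended prior variance, and p-values were adjusted over all genes tested by Benjamini-Hochberg, with 0.05 as threshold. They had organ alone (7 residual degrees of freedom) or organ and replicate number as a block (5). The numbers were treated as pairing the arrays, although the labels do not say what they stand for. After organ means were subtracted, 15 pairs of the same number correlated at 0.412 to 0.731, and 30 pairs of other number and organ at -0.708 to 0.0841. With few arrays an organ, subtracting organ means itself pushes the latter values down, so part of this gap is built in. The fits were also run on simulated data with independent normal errors and the number effect added as a fixed shift. Such data cannot show whether a block suits these arrays.

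Named are the 7 genes, up to 4 genes per list that pass the organ or number test in either fit (filled to 2 by p in the blocked organ test), and 3 genes per tested member of highest likeness on each measure. The members and lists were chosen with earlier results of these data known. Alternatives were normalization, pseudocount, filter, probe set rule, variance trend, block, organ term in the number tests and leaving out each array.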

Additional observations from a re-analysis of the deposited data

How the results depend on the processing

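With organ alone in the model, the count of the 7 genes passing was 0 in the organ test and in each pair under every scaling, pseudocount, filter and probe set rule tried, and with each array left out. The count over the 3 replicate numbers was 5 with each array left out. A random replicate block gave 0 members in every comparison and 4 list genes in the organ test.

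The fixed replicate block gave 3 members in the organ test, 1 in Liver minus MLN and 2 in Liver minus PLN, and 7 list genes in the organ test, where organ alone gave 0 in each. Combined with another choice, the block gave in the organ test, in Liver minus MLN and in Liver minus PLN: 2, 1 and 1 with intensities as deposited; 4, 2 and 3 with median centring; 2, 1 and 2 with a pseudocount of 1 or of 64; 1, 1 and 1 with the mean of probe sets. In the upper 40% it gave 2 in the organ test and 2 in Liver minus PLN, and with no filter 1 in Liver minus MLN. Median centring also gave 2 in MLN minus Spleen. The list genes numbered 8, 8, 7, 7 and 6 under the first 5 of these, 7 in the upper 40%, 3 with no filter, and 2 with every probe set or with no variance trend. Arrays numbered 2 and 4 alone, chosen like the combined fits after seeing the data, gave 3, 2 and 2 members, 1 in PLN minus Spleen and 12 list genes. Numbers 2 and 3 alone gave 2 in Liver minus MLN and 1 list gene, and numbers 3 and 4 alone 1 list gene. The causes were not tested; fewer arrays or genes entered some of these fits.

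With 1 array left out, the counts in the blocked fit ran from 0 to 2 in the organ test and Liver minus MLN. They ran from 0 to 3 in Liver minus PLN, 0 to 1 in MLN minus Spleen and 0 to 10 for list genes. Some values that were not called changed sign, here with organ alone in the model unless the block is named. Leaving out arrays gave -0.80 to 0.26 for Il3 Liver minus MLN, -0.81 to 0.0103 for Il10 Liver minus MLN, -0.98 to 0.0692 for Csf2 Liver minus MLN, -0.55 to 0.48 for Csf2 Liver minus PLN (0.0404 without Liver replicate 3 in the blocked fit), -0.38 to 1.91 (2.07 in the blocked fit) for Il13 MLN minus Spleen and -0.11 to 1.43 for Csf2 MLN minus Spleen. Csf2 Liver minus PLN was 0.0569 in arrays numbered 2 and 4 with the block. Without a Spleen array, the lone Spleen array is assumed to vary like the other groups.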
